A study of Xenopus laevis with 4 samples.

Results

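The genes described here build, sort, tether and fuse the vesicles that carry proteins between the endoplasmic reticulum, the Golgi, endosomes and the cell surface. They were picked by gene name alone, with the L or S that marks the copy of a duplicated gene removed, from families such as the COPII and COPI coats, clathrin and its adaptors, the sorting nexins, the ESCRT proteins, the tethering complexes and the SNAREs. At stage 25 they held 0 of the 45 listed 5-methylcytosine (m5C) sites. At stage 0 they held 375 of 16233 sites (2.31%) and 154 of the 7140 genes with a site (2.16%).

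Polyadenylated RNA of Xenopus laevis embryos was treated with bisulfite and sequenced, so that unmethylated cytosines were read as T and methylated ones as C. The labels give 2 libraries for stage 25, a tailbud embryo, and 2 for stage 0, each made from pooled whole wild-type embryos (the genotype is given in the study's methods) with no treatment named in the labels, so the cells that carried a modified RNA cannot be told apart. The titles of the stage 25 libraries begin with XT and those of the stage 0 libraries with XL, while the organism label of all 4 is Xenopus laevis. The study's methods name stage 25 among the Xenopus laevis collections and only stage 0 for Xenopus tropicalis. The deposited lists give 1 combined value per site and stage, so there is no spread between replicates. The interval given with a level is therefore a 95% Wilson interval that covers counting error only. Reads copied by PCR carry no molecular identifiers here and cannot be told from separate molecules, so the interval may be too narrow even for that error.

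m5C is placed on mRNA by NSUN-family methyltransferases. In vesicle transport, a coat bends the membrane and gathers cargo through receptors and adaptors, a tether catches the vesicle at its target, and SNARE proteins on both membranes pair to fuse them. COPII carries cargo out of the endoplasmic reticulum, COPI returns it from the Golgi, clathrin acts at the cell surface, the trans-Golgi network and endosomes, and retromer and sorting nexins recycle proteins from endosomes. An egg stores the mRNAs for this machinery before its own genome is switched on. X. laevis is an allotetraploid, and many genes are kept as an L and an S copy.

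The level of a site is the share of C among its C and T reads. A site had to reach 20 reads and 10% to be listed, so the lists hold no unmethylated positions. Other filters of the study applied too, among them a least number of C reads. No listed vesicle-gene site had fewer than 5 C reads. A gene that is not listed may be unexpressed, uncovered, unmethylated or filtered out, which cannot be told apart. Coverage at stage 0 had a median of 153 reads at the vesicle-gene sites (lowest 21, highest 4668) and of 146 reads over all sites. Coverage of 1000 reads or more was reached at 17 sites (4.53%), against 10.4% of all sites. The median half-width of an interval was 6.27 percentage points.

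The levels of the vesicle genes were spread as those of all listed sites. Their median was 21.0% and their mean 28.8% ± 20.2 (SD over 375 sites), against a median of 21.1% and a mean of 29.4% ± 21.1 (SD over 16233 sites) in the whole list. Levels under 20% were found at 177 sites (47.2%, against 47.2% of all sites), levels of 20% to under 50% at 137 sites (36.5%, against 36.5%) and levels of 50% or more at 61 sites (16.3%, against 16.3%). The whole interval lay above 50% at 47 sites (12.5%) in 40 genes, against 11.9% of all sites, a share near the background. Across sites, reads and level were nearly unrelated, with a Spearman rho of -0.064 over the 375 sites and -0.031 over all 16233. Sites of a gene share its libraries, so rho is a description of these lists. The 48 sites with fewer than 50 reads had a median level of 30.1%, and the 52 with 500 reads or more one of 25.3%. The least number of C reads bars low levels at low coverage, so these medians do not compare like with like.

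**Figure D1:**
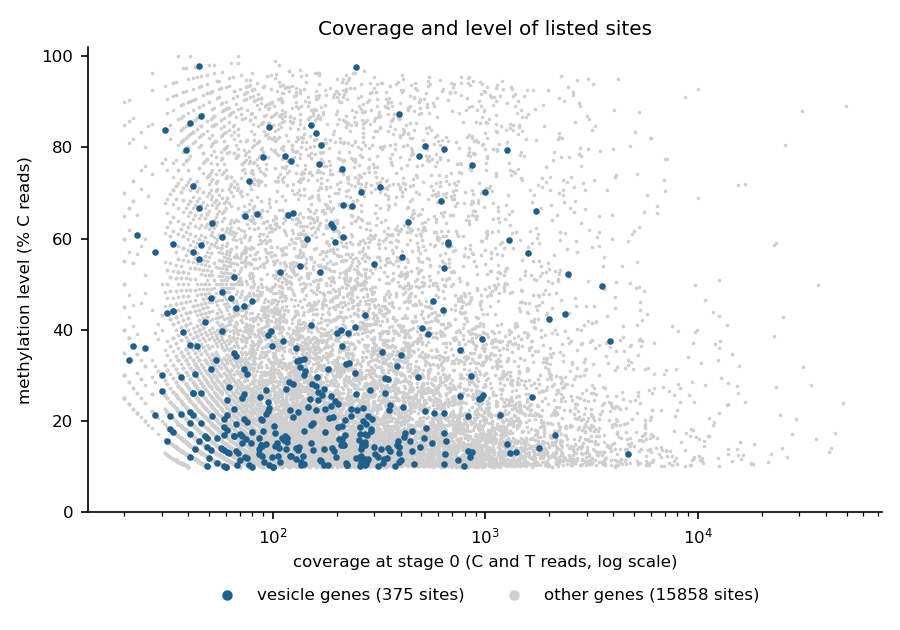
Methylation level at stage 0 (% C reads) against coverage (C and T reads, log scale) for 375 sites of vesicle genes (blue) and 15858 sites of other genes (grey), each point 1 site. The blue points reach 4668 reads and lie over the same range of levels as the grey ones, with medians of 21.0% for vesicle genes and 21.1% for all sites.

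The lists can also be read against the annotation. Of 400 protein-coding RefSeq symbols that fit the names, 144 (36.0%) had at least 1 listed site at stage 0, against 16.5% of all protein-coding symbols. Among symbols that end in L or S the share was 36.1% for the vesicle genes and 23.0% for all. Expression was not measured in these files, so its part in that difference was not tested. By role the share was 11 of 16 for COPII, 7 of 14 for golgins, 29 of 60 for retromer and sorting nexins, and 28 of 63 for clathrin and its adaptors. The ER translocon had 4 of 9, cargo receptors 14 of 35 and the exocyst 4 of 15. It was 14 of 50 for SNAREs, 9 of 31 for ESCRT, 8 of 33 for COG and TRAPP, 3 of 15 for COPI, and 2 of 13 for HOPS, CORVET and GARP. SNARE partners and synaptotagmins had 3 of 27, and none of their listed genes was a synaptotagmin. The 9 listed names without a RefSeq symbol are left out. The site list itself held 12 COPII genes and 5 genes of SNARE partners, so roles differ partly in how well their names matched. Of the 153 vesicle-gene names, 144 matched a RefSeq symbol. The whole list had 7093 names for 5691 listed protein-coding symbols, so its names matched less often. The 36.0% and the 16.5% therefore rest on unlike matching, and part of their difference may come from it.

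**Figure D2:**
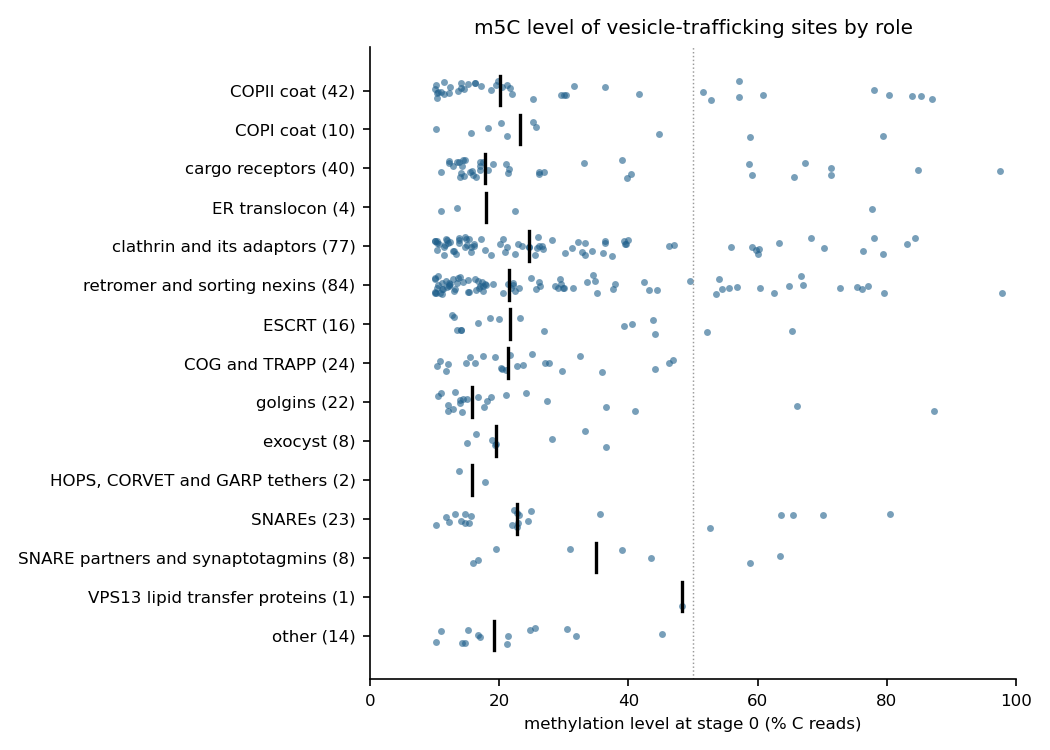
Methylation level at stage 0 (% C reads) of the 375 sites by role, with the number of sites of each role in brackets, 1 point a site, black bars for medians and a dotted line at 50%. Sites of 50% or more stand in the coats, cargo receptors, ER translocon, sorting nexins, ESCRT, golgins, SNAREs and SNARE partners, while the 24 sites of COG and TRAPP and the 8 of the exocyst all lie below the line.

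Among the coats, COPII had the most sites per gene, 3.5 against 3.33 for COPI and 2.27 over all listed genes. It had 42 sites in 12 genes, 11 of them in sec16a.S and 7 in sec16a.L, with a median of 20.1%. Its highest levels were in the sec24 genes, which encode the subunit that binds cargo. Sec24d.L was read as C in 420 of 523 reads (80.3%, 76.7 to 83.5) at position 39581348 of chromosome 7L, minus strand, while its other 3 sites had 14.0%, 14.1% and 22.0%. Sec24d.S carried 87.0% at 40 of 46 reads (74.3 to 93.9), with 12.2% and 19.5% at its other sites. In each copy the high site was the most 3′ of those listed. Sec24b.S had 85.4% at 35 of 41 reads, while no site of sec24b.L passed 18.7%.

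Sec16a organises the exit sites where COPII coats assemble, and its S copy had more listed sites than any other vesicle gene. The 11 sites of sec16a.S all lay between 10% and 30%. The 7 sites of sec16a.L covered a wider range, from 10.2% to 83.9% (26 of 31 reads, 67.4 to 92.9), with a second high site at 78.1% (89 of 114 reads). A neighbour 33 nt away from that site had 14.6% at 103 reads. Sec31a.L, of the outer coat, reached 60.9% with only 23 reads (40.8 to 77.8), an interval that crosses 50%.

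COPI was listed in 3 genes with 10 sites. Copb1.S, which encodes a subunit of its adaptor layer, had 58.8% (391 of 665 reads, 55.0 to 62.5) at its highest site and 10.2% to 25.6% at its other 4. Copa.L, the largest COPI subunit, reached 79.5% at 31 of 39 reads (64.5 to 89.2), with 44.8%, 18.2% and 15.6% elsewhere.

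Cargo receptors ride in these coats, and they held the site with the highest lower bound of all vesicle genes. It lay in ergic3.L, a membrane protein that cycles between the endoplasmic reticulum and the Golgi: 240 of 246 reads were C (97.6%, 94.8 to 98.9) at position 34015567 of chromosome 9_10L, minus strand. The other ergic3.L site, 1172 nt away, had 12.8% (39 of 304 reads). The lectin-type receptor lman2l.L had 84.9% (129 of 152 reads, 78.3 to 89.7) at 1 site and 15.7% to 39.8% at its other 5. Tmed2.S, of the p24 family of receptors, had 71.3% (229 of 321 reads) at its single site.

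Mia3 helps load collagen and other bulky cargo, and mia3-like.1.L had 8 sites. Neighbouring sites 19 nt apart had 67.3% (144 of 214 reads) and 59.2% (116 of 196 reads), and the other 6 lay between 12.2% and 39.1%. The endoplasmic reticulum translocation genes sec62 and sec63 matched the names as well, with 1 site in each of their 4 copies. Sec62.L had 77.8% (70 of 90 reads, 68.2 to 85.1), and sec62.S had 10.9% at 55 reads.

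Clathrin and its adaptors had 77 sites in 29 genes and a median of 24.5%. The clathrin heavy chain gene cltc.S had 83.1% (133 of 160 reads, 76.6 to 88.1) at position 74699778 of chromosome 2S, the most 5′ of its 8 sites, and 12.4% to 36.4% at the rest. The light chain genes clta.L and cltb.L had 1 site each, at 17.7% and 13.8%. Ap2b1.L, the beta subunit of the AP-2 adaptor of the cell surface, had 78.1% (381 of 488 reads, 74.2 to 81.5), 23.6% and 14.8%.

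Eps15 binds AP-2 and ubiquitin-tagged cargo during endocytosis, and eps15.L had 3 of its 6 sites above 60%. They had 79.5% at 1271 reads (77.2 to 81.6), 70.2% at 991 reads (67.3 to 73.0) and 68.3% at 621 reads (64.5 to 71.8), beside 37.5%, 21.2% and 20.7% at its other 3. Its relative eps15l1.S had 84.4% (81 of 96 reads, 75.8 to 90.3), with 36.0% and 11.6% at its other sites. The AP-3 subunit gene ap3d1.S had 6 sites from 10.3% to 39.3%, while its L copy reached 76.4% (126 of 165 reads, 69.3 to 82.2). Ap3m2.L, of the same adaptor, had 60.3% (129 of 214 reads) and 25.9%.

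Retromer and the sorting nexins formed the largest group, with 84 sites in 32 genes and a median of 21.6%. Vps26b.S, a subunit of the retromer core, had 79.6% (507 of 637 reads, 76.3 to 82.5). The highest level of all vesicle genes was in snx33.L, a membrane-bending sorting nexin, with 97.8% at only 45 reads (88.4 to 99.6). Snx7.L reached 56.8% at 1592 reads (54.3 to 59.2), a narrow interval.

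The deepest sorting nexin was snx10.L, with 37.6% at 3845 reads (36.0 to 39.1) and 49.5% at 3544 reads (47.9 to 51.2), 20 nt apart. Those intervals did not overlap. Sites this close share reads while the intervals treat all reads as independent, so the difference is only described. Snx25.L had 10 sites, from 10.1% to 54.5%, and 2 of them passed 50%. Snx13.L had 6 sites and its highest was 34.5% (138 of 400 reads).

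ESCRT proteins pull membrane away from the cytoplasm to form multivesicular bodies, and the ATPase vps4 takes their filaments apart. Vps4b.L had 65.3% (77 of 118 reads, 56.3 to 73.2) and vps4b.S 52.2% (1281 of 2453 reads, 50.2 to 54.2). The filament gene chmp1b.S had the deepest site of all vesicle genes and one of the lower levels, 12.7% at 4668 reads (11.8 to 13.7). The remaining ESCRT sites were at or below 44.1%.

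No site of the COG, TRAPP, exocyst and GARP genes reached 50%. Together they held 34 sites in 15 genes with a median of 20.3% and a highest level of 46.9%. These roles were put together after their values were seen, so the absence of a high site follows from that choice and is only a description. Their highest sites were in cog8.L (46.9%, 30 of 64 reads, 35.2 to 58.9) and cog3.S (46.2%, 262 of 567 reads, 42.1 to 50.3), both subunits of the COG complex that tethers vesicles at the Golgi. Exoc5.L, of the exocyst at the cell surface, had 36.5% (77 of 211 reads). Vps53.L, of the GARP complex, had 17.8% (16 of 90 reads). Vps33a.L, counted here with the SNARE partners, is also a subunit of the HOPS tether and had 58.8% at 20 of 34 reads (42.2 to 73.6), and the golgins, tethers of another kind, held sites above 50% as well.

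Golgins are long coiled-coil tethers of the Golgi. They had the lowest median among roles with at least 20 sites, 15.8% over 22 sites, but a pair of genes held a high site. Golgb1.S (giantin) had 87.2% (342 of 392 reads, 83.6 to 90.2) at position 61067188 of chromosome 3S, plus strand, and 12.1% to 41.1% at its other 9 sites, the nearest being 15.0% at 213 reads, 372 nt away. Golga5.L had 66.1% at 1733 reads (63.9 to 68.3) and 13.1% at its other site.

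The SNAREs had 23 sites in 15 genes and a median of 22.7%. Snap47.L, a SNAP-25 relative, had 5 sites, of which the first 4 lay 1, 7 and 14 nt apart: 12.3%, 22.3%, 80.5% (136 of 169 reads, 73.8 to 85.7) and 70.1% (183 of 261 reads, 64.3 to 75.3) in 5′ to 3′ order. Vamp1.L, a vesicle SNARE, had 63.7% (277 of 435 reads) at its single site, and stx4.L, a syntaxin of the cell surface, had 65.5%, 24.9% and 13.2%. Among the proteins that act on SNAREs, stxbp3.L had 43.5% at 2364 reads (41.5 to 45.5) and stxbp5l.L 63.5% at 52 reads (49.9 to 75.2).

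The lipid transfer gene vps13a.L had 48.3% at 58 reads. The remaining 7 genes were hgsnat.L, vps72.L, vps9d1.L, sec14l1.L, sec14l3.S, sec23ip.L and sec23ip.S, which were given no other role. Some, such as hgsnat.L, fit the name rule by spelling alone. These 7 genes had 14 sites, the highest in hgsnat.L, a lysosomal enzyme, at 45.2% (33 of 73 reads, 34.3 to 56.6).

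Within a gene, levels usually differed from site to site. A chi-square test of C and T reads over the sites of each gene, with Benjamini-Hochberg adjustment over all 3895 genes with at least 2 sites, passed an adjusted p of 0.05 in 68 of 85 vesicle genes (80.0%), against 74.4% of all genes. The adjusted p of that chi-square test (Benjamini-Hochberg) was 2.68e-195 for eps15.L, 4.15e-146 for golgb1.S, 5.78e-86 for ergic3.L, 1.45e-82 for sec24d.L, 6.66e-54 for snap47.L and 7.88e-49 for lman2l.L. Sites close together share reads, so the test's independence does not hold for them, and it compares sites within combined libraries. Among vesicle genes with at least 2 sites, 38 (44.7%) had a site of 50% or more, against 42.0% of all such genes. In 30 of those 38 (78.9%, against 76.8%) it was the only one, and the median gap between the highest and the next site of the gene was 43.9 percentage points (43.3 for all). This summary was added after the data were seen.

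**Figure D3:**
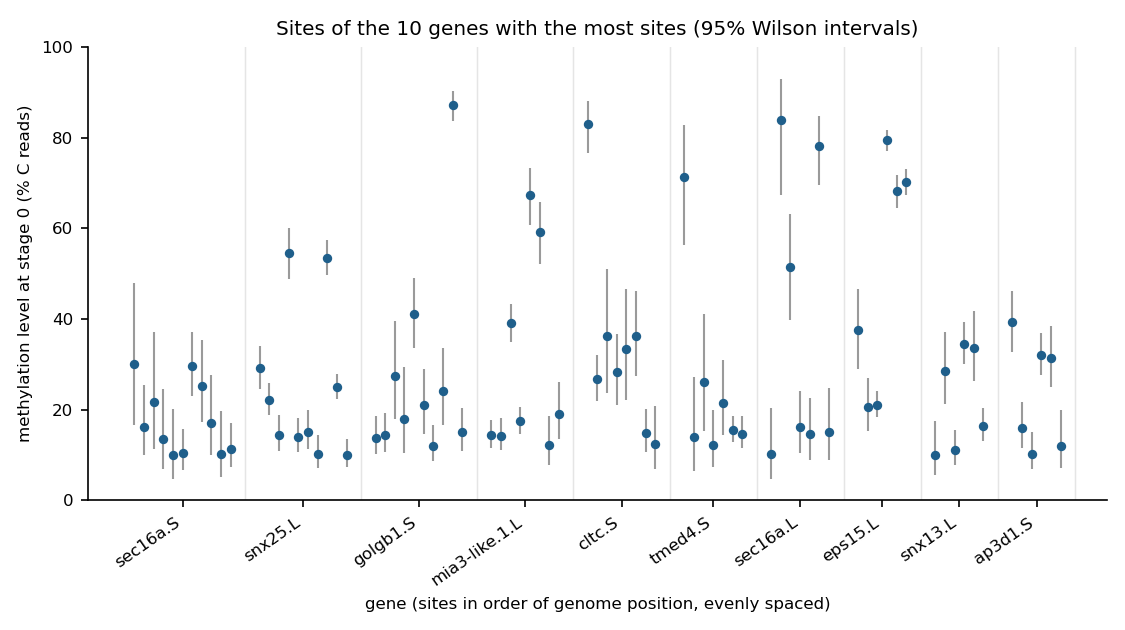
Methylation level at stage 0 (% C reads) of each site in the 10 vesicle genes with the most sites (of 5 genes tied at 6 sites, the 3 with the most reads are drawn, which leaves out lman2l.L with a site at 84.9% and snx13.S with one at 64.9%), in order of genome position and evenly spaced, with 95% Wilson intervals as bars. The 11 sites of sec16a.S stay at 10% to 30%, golgb1.S has 1 site at 87.2% among 10, and eps15.L has 3 of 6 sites above 60%.

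Sites were sometimes directly adjacent. Of 221 neighbouring pairs within vesicle genes, 10 (4.52%) in 8 genes were 1 nt apart, against 2.60% of all neighbouring pairs, and 32 (14.5%, against 10.5%) were at most 50 nt apart. The median distance was 2689 nt, against 2472 nt, introns included. In 4 of the 10 adjacent pairs the intervals did not overlap, a share not computed for the 236 adjacent pairs of the whole list. Snx27.S, which recycles membrane proteins with retromer, had 76.2% (660 of 866 reads) at the 5′ residue and 29.9% (257 of 859 reads) at the 3′ one, and snx25.L had 54.5% (164 of 301 reads) and 14.4% (43 of 299 reads). In tmed4.S, consecutive residues had 26.2% (11 of 42 reads), 14.0% (6 of 43 reads) and 71.4% (30 of 42 reads) in 5′ to 3′ order. Its middle residue therefore counts in both of its pairs, and only the more 3′ pair had the reverse order. The 5′ residue was the higher in 5 of the 10 pairs, and this was not counted over all adjacent pairs. The count was made after the data were seen.

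Of 120 gene names that carry an L or S, 32 had listed sites in both copies (26.7%, against 22.0% of all 4684 such names). Sites lay in the L copy alone for 55 names and in the S copy alone for 33, against 2296 and 1357 of all 4684. RefSeq held both an L and an S symbol for only 83 of the 120 names, and the rest may have no other copy to list. Of those 83, 32 had sites in both copies (38.6%), 30 in L alone and 21 in S alone. That restricted count was not made for the whole list. Copies were told apart by the letter of the name. Snx17 was therefore counted as L alone, although an snx17 entry without a letter lay on chromosome 5S. For each of the 32, the highest site of either copy was set side by side. The study's methods do not state how reads that fit both copies were assigned, so the levels of the copies may not be fully separate. The L copy was higher with intervals apart in 15, the S copy in 8, and the intervals overlapped in 9. The same counts were not made for the 1031 names of the whole list with both copies. Whether they differ in vesicle genes is therefore not known. A highest site is a maximum and copies differ in their number of sites, so no test was made. A comparison of spacings up to 500 nt found no pair of sites equally spaced in both copies. Spacing does not identify a residue without the sequence, so whether both highest sites are the same residue is not known.

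Eps15 had 79.5% in L and 55.9% (227 of 406 reads, 51.0 to 60.7) in S, and vps4b had 65.3% in L and 52.2% in S. Snx18, which bends membrane in endocytosis, had 42.3% in L (840 of 1984 reads) and 22.4% in S (79 of 353 reads), where the S name covers 2 gene identifiers, 1 on an unplaced scaffold. The endocytic adaptor epn2 had 59.2% in L (394 of 666 reads) and 60.0% in S (87 of 145 reads), with overlapping intervals. Snx10 had 49.5% in L and 67.1% in S (159 of 237 reads), and snx27 had 62.5% in L (120 of 192 reads) and 76.2% in S. The widest gaps were in ergic3 (97.6% in L, 13.8% in S), sec62 (77.8% in L, 10.9% in S) and sec24b (18.7% in L, 85.4% in S).

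**Figure D4:**
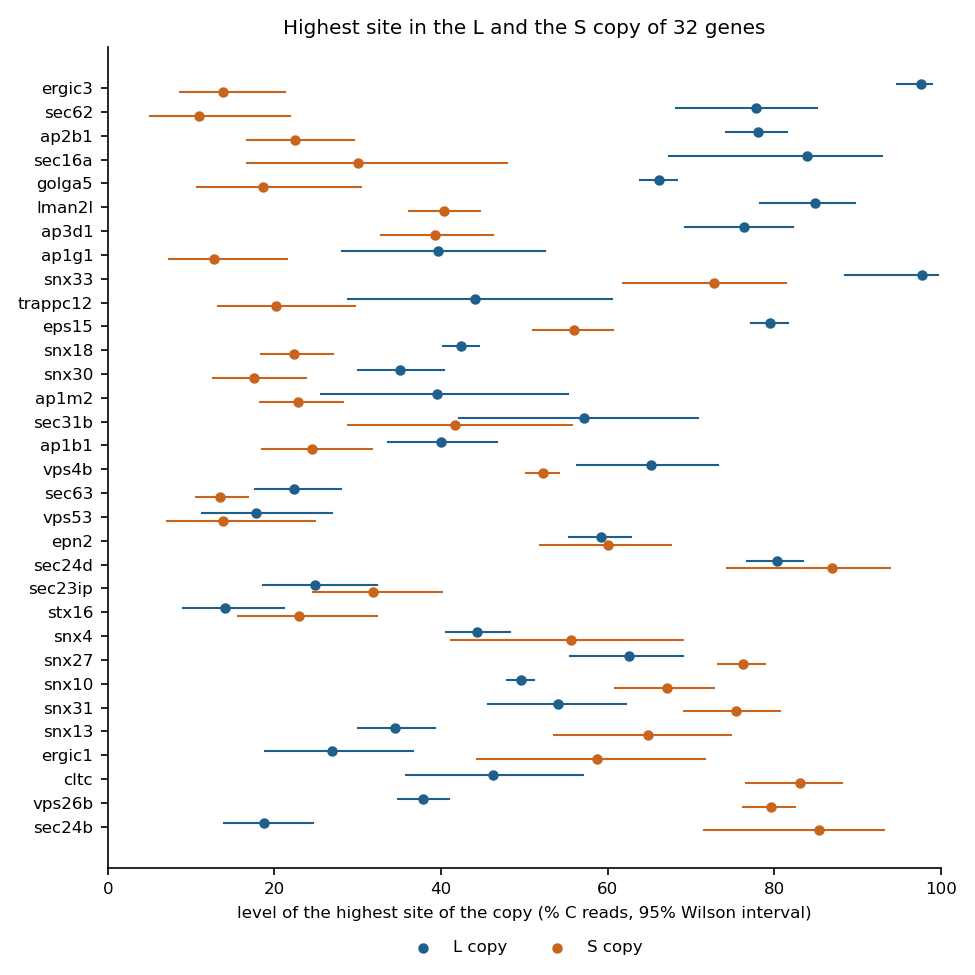
Level of the highest site (% C reads) in the L copy (blue) and the S copy (orange) of 32 genes, with 95% Wilson intervals, ordered by the difference L minus S. Ergic3 stands at the top with 97.6% in L and 13.8% in S, and sec24b at the bottom with 18.7% in L and 85.4% in S.

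At stage 25, no vesicle gene had a listed site. The whole list held 45 sites, with coverage of 21 to 3890 reads and a median of 95. A count of 0 of 45 allows a share of up to 6.67% when 3 counts are taken as the limit, and up to 7.87% by the exact (Clopper-Pearson) bound. Either limit includes the stage 0 share of 2.31%, at which 45 sites would hold 1.04 vesicle-gene sites. The short list at stage 25 is a property of the whole data set, so no fall particular to these genes was detectable. Of the 36 sites listed at both stages none lay in a vesicle gene, so no level of a vesicle gene could be compared between stage 25 and stage 0 by Fisher's exact test.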

How the data were processed

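Levels and coverage came from the deposited site lists of stage 25 and stage 0. Per the study's methods, the authors trimmed reads with cutadapt and Trimmomatic. Unique alignments to a converted X. laevis v9.2 genome were taken with HISAT2 (version 2.10 in the submitters' processing notes). Reads left unmapped or mapped to several places went to a converted transcriptome with Bowtie2. Alignments were then merged, sites filtered and replicates combined. How reads that fit both the L and the S copy of a gene were assigned is not stated. Coverage is a deposited count of C and T reads, the level a deposited fraction, and the deposited p-value is the authors' own and was not used. The study's text calls replicates technical in one place and biological in another. Positions are printed as deposited, and their first base (0 or 1) was not stated. Depth is given per site, because library totals are not given in the lists.

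C reads were recovered as level times coverage. Python 3.11.15 with scipy 1.17.1, pandas 2.3.3 and numpy 2.4.6 gave Wilson intervals, chi-square tests per gene and Benjamini-Hochberg adjustment. Tests were checked on simulated data. Genes were assigned to roles by name. RefSeq symbols of Xenopus_laevis_v10.1 were matched by symbol (144 of 153 names), and no coordinates of that build were used. Matching was changed from symbol or synonym to symbol alone after the first counts were seen, because some synonyms gave 1 listed name to both copies of a gene; both counts are in the closing section.

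Named were the 12 sites of highest lower bound, the 10 genes with most sites (ties broken by total coverage) and the 5 deepest sites. Also named were the highest site of each role at 50 reads or more and the 6 L and S pairs with most reads. The last rule took the 5 called genes of largest range among those with at least 50 reads at each site. Others were named after their values were seen. Members, lists and tests were chosen with earlier results of these data known. The roles of snap91 and vps50, which have no listed site, were set after the values were seen, as were the RefSeq, tether, adjacent-site and single-high-site summaries. Alternatives were stricter coverage and level minimums, assembled chromosomes only, exact intervals, a likelihood-ratio test and Bonferroni adjustment. The names snx11.L and stx5.S carry a letter that differs from their chromosome's.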

Additional observations from a re-analysis of the deposited data

How the results depend on the processing

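Site numbers followed the thresholds: 241 vesicle-gene sites remained at 100 reads or more, 198 at levels of at least 20% and 121 at levels of at least 30%, the last in 85 genes, against 375 sites in 154 genes as deposited. The fewer sites follow from the stricter minimum itself. The median level lay between 19.9% and 21.4% under all its alternatives. Sites with an interval above 50% ranged from 35 of 241 at 100 reads or more to 47 of 375 as deposited. The share over all sites was 11.9% as deposited and was not computed at the stricter minimums. Genes whose sites differed numbered 47 (chi-square, Bonferroni) to 68 of 85, with no Bonferroni count made over all genes. At sites of 50 reads or more they were 58 of 70 (82.9%), against 76.9% of all 3347 such genes. Vesicle-gene sites at both stages were 0 throughout. RefSeq symbols with a site numbered 144 matched by symbol (36.0%, against 16.5% of all) and 151 matched by symbol or synonym (37.8%, against 17.4%), an alternative kept after seeing the data. By symbol, vesicle-gene names matched more often than those of the whole list, so the 36.0% and the 16.5% are not on equal terms. No paired analysis was possible because each list gives a single value for a site, with replicates already merged, and leaving out a replicate could not be run for the same reason. The median half-width of an interval was 6.27 percentage points, and the median depth was 153 reads. Differences of that size between sites of that depth were not detectable. The half-width is the error of a single site, so somewhat larger differences between sites may not be detectable either.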
